A study of Chlorocebus sabaeus with 45 samples.

Results

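The cytotoxic granule genes described here are 9 of the 33994 genes listed for every library. They were chosen by symbol, and comprise the granzymes GZMA, GZMB, GZMK and GZMM, the pore-forming proteins PRF1 and GNLY, the granule membrane protein NKG7, the protease CTSW and the death ligand FASLG. Each of the 9 was found once, and each was among the 18753 genes that passed the filter on low values (over 0.5 CPM, the fragment count relative to the depth of the library, in 3 or more libraries). The study followed 15 wild-born juvenile male vervet monkeys (Chlorocebus sabaeus) from St. Kitts, 1 animal per troop, through capture and quarantine, which served as a psychosocial stressor. Whole-blood RNA was sequenced from every animal on day 0 (Tp1), day 3 (Tp2) and day 14 (Tp4). All animals were sampled in the field on day 0 under ketamine and xylazine, and on the later days in individual housing under dexmedetomidine and midazolam. There were no animals that stayed in the field, so sedation, place and time since capture cannot be told apart in any comparison with day 0.

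Cytotoxic lymphocytes, which are natural killer (NK) cells and cytotoxic T cells, store lytic proteins in secretory lysosomes. On contact with a target cell the granules fuse with the membrane, perforin opens the way into the target, and granzymes, which are serine proteases, cleave proteins there and start apoptosis. Fas ligand kills by another route, through the death receptor Fas on the target cell. These genes are transcribed mostly in NK cells, CD8 T cells and other effector lymphocytes, a minority of the leukocytes in whole blood, so a level measured in whole blood depends on how many such cells there are and on how much RNA each holds. Fewer cells of a type and less RNA per cell cannot be told apart in these data.

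The libraries held between 13216280 and 31469337 fragments on genes, and the 9 genes together took 0.0577% ± 0.0247 of them on day 0 (SD, n = 15), 0.0789% ± 0.0309 on day 3 and 0.0994% ± 0.0514 on day 14. Levels are given in FPKM as deposited, which are per gene length and per library. Changes are log2 fold changes within animals on the scale of log2(FPKM + 0.1) after TMM scaling (a trimmed mean of the log ratios between libraries), from limma with the animal as a block, and adjusted p-values are Benjamini-Hochberg over the 18753 tested genes. A gene is said to have risen or fallen where its adjusted p was under 0.05. Over all tested genes the median change from day 0 to day 14 was −0.03 with TMM. Without it that median was −0.36, so changes on day 14 are relative to the typical gene. A pair of libraries stood apart by the number of genes above 0, with 31402 in VSC00004 on day 14 and 30752 in VSC00009 on day 0 against at most 26792 in the others. With both animals left out the same numbers of members were called, 6, 7 and 3 in the comparisons that follow.

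From day 0 to day 3, 6 of the 9 genes rose and 0 fell, with a median log2 fold change of 0.80 over the 9 against 0.01 over all tested genes. In that comparison 19.0% of all tested genes were called, 10.2% as higher and 8.82% as lower. From day 0 to day 14, 7 of the 9 rose and 0 fell, with a median of 1.14 against −0.03, where 43.9% of all tested genes were called, 22.5% as higher and 21.4% as lower. Without TMM 7 rose and 0 fell over that interval, with a median of 0.72 against −0.36 and 59.2% called over all tested genes. From day 3 to day 14, both taken in the same housing under the same sedatives, 3 rose and 0 fell, with a median of 0.36 against −0.03, and the background was 23.9% called, 13.3% higher and 10.6% lower. Without TMM this last comparison had 1 gene higher and 0 lower and a median of −0.01, against −0.35 and 51.1% called over all tested genes. The 3 comparisons share libraries and are not independent of each other. At an unadjusted p under 0.05 and with limma voom on the recovered fragments the number that fell was again 0 in each. GZMA and GZMB rose in all 3 comparisons, GZMK rose in the 2 that end on day 14, PRF1, GNLY, NKG7 and FASLG rose in the 2 that start from day 0, and GZMM and CTSW passed the threshold in none.

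**Figure D1:**
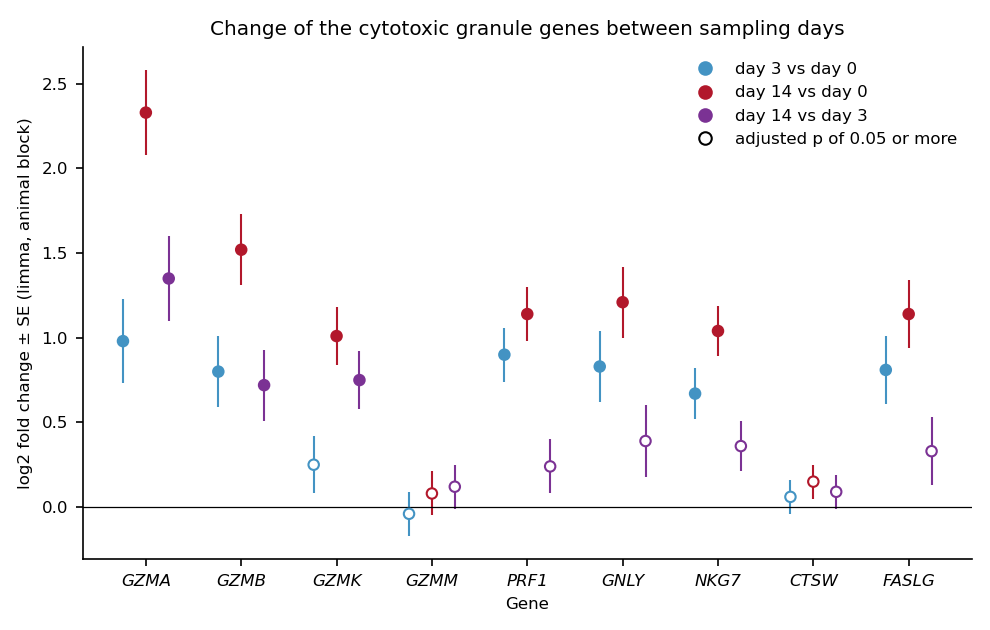
log2 fold change ± SE of each of the 9 genes (limma with the animal as a block, n = 15 animals) for day 3 vs. day 0 (blue), day 14 vs. day 0 (red) and day 14 vs. day 3 (purple), with filled points for an adjusted p under 0.05 and open points otherwise. GZMA lies highest, at 2.33 from day 0 to day 14, and the points of GZMM and CTSW lie between −0.04 and 0.15.

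GZMA encodes granzyme A, a tryptase of the granule. On day 0 its level ran from 2.75 FPKM in VSC00007 through a median of 11.3 to 32.2 in VSC00005. On day 3 it ran from 7.64 through 22.8 to 53.0, and on day 14 from 15.2 through 42.4 to 113. Day 0 and day 14 overlapped, but 10 of the 15 day 14 libraries lay above every day 0 library and 9 day 0 libraries lay below every day 14 library. GZMA rose by a log2 fold change of 0.98 on day 3 (SE 0.25, adjusted p = 0.00612 from limma, higher in 13 of 15 animals) and of 2.33 from day 0 to day 14 (SE 0.25, adjusted p = 2.43e-07, higher in 15 of 15). Between day 3 and day 14 it rose by 1.35 (SE 0.25, adjusted p = 4.64e-04, higher in 14 of 15). The change from day 0 to day 14 ranged from 0.83 in VSC00010 to 4.30 in VSC00014. Without TMM it was 1.91 (adjusted p = 2.11e-07), and with RNA integrity in the fit as a covariate 1.72 (adjusted p = 1.73e-04). RNA integrity was higher on average on day 3 than on day 0 and higher again on day 14, and with it in the fit 4090 of all tested genes were called from day 0 to day 14 against 8228 without it. Its part in the changes of the 9 genes was not tested beyond this covariate.

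GZMB encodes granzyme B, which cleaves after aspartate and activates caspases in the target cell. It had the highest median of the 9 genes on each day. Its level ran from 55.1 FPKM in VSC00014 through 189 to 454 in VSC00002 on day 0, from 141 through 286 to 556 on day 3, and from 92.0 through 389.5 to 957 on day 14. The days overlapped, with 5 day 14 libraries above every day 0 library. GZMB rose by 0.80 on day 3 (SE 0.21, adjusted p = 0.00827, higher in 13 of 15 animals), by 1.52 from day 0 to day 14 (SE 0.21, adjusted p = 1.81e-06, higher in 14 of 15) and by 0.72 between day 3 and day 14 (SE 0.21, adjusted p = 0.0147, higher in 14 of 15). The last of these was lost without TMM (0.35, adjusted p = 0.189), without the animal block (0.72, adjusted p = 0.0610) and with RNA integrity as a covariate (0.46, adjusted p = 0.133), and the covariate also ended the call on day 3 (0.56, adjusted p = 0.0544).

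GZMH, a paralog of GZMB that is adjacent to it in the RefSeq table for vervet (assembly mChlSab1.0.hap1), is not among the 9 genes but was the tested gene most like GZMB over the 45 libraries (r = 0.96, and 0.94 with the day means removed). It rose alongside GZMB, by 1.51 from day 0 to day 14 (SE 0.20, adjusted p = 1.22e-06). Within a library GZMB stood above GZMH by a mean log2 ratio of 0.91 on day 0 and 0.92 on day 14, and the difference between the days, 0.01 ± 0.32 (SD, n = 15), was small beside its spread. How reads that match more than 1 granzyme gene were counted is not given in the sources used here, so the split between these paralogs is uncertain.

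GZMK encodes granzyme K, a tryptase that lies beside GZMA with 0 protein-coding genes between them in the RefSeq table. GZMK levels ran from 36.0 FPKM through 145 to 316 on day 0, from 69.9 through 158 to 305 on day 3 and from 55.9 through 197 to 567 on day 14. Day 3 lay within the range of day 0 and 4 day 14 libraries lay above both earlier days. GZMK differed by 0.25 on day 3 (SE 0.17, adjusted p = 0.304, higher in 10 of 15 animals) and rose by 1.01 from day 0 to day 14 (SE 0.17, adjusted p = 1.49e-05, higher in 14 of 15). It rose by 0.75 between day 3 and day 14 (SE 0.17, adjusted p = 0.00228), a step that was upward in 15 of 15 animals. Without TMM the change from day 0 to day 14 was 0.59 (adjusted p = 0.0111) and the change between day 3 and day 14 was 0.38 and no longer called (adjusted p = 0.102). GZMA and GZMK were also compared within animals. From day 0 to day 3 the change of GZMA was larger in 14 of 15 animals, and the log2 ratio of GZMA to GZMK within a library went from −3.54 on day 0 to −2.82 on day 3 and −2.22 on day 14, higher on day 14 than on day 0 in 15 of 15 animals.

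GZMM encodes granzyme M, a protease known for cleaving after methionine and expressed in NK cells. Its level ran from 10.2 FPKM through 51.8 to 71.9 on day 0, from 23.0 through 40.0 to 70.7 on day 3 and from 10.2 through 31.0 to 96.8 on day 14. VSC00015 was lowest on day 0 and on day 14. The days overlapped, with 4 day 14 libraries below every day 3 library and 1 above. The difference was −0.04 on day 3 (SE 0.13, adjusted p = 0.887, higher in 7 of 15 animals) and 0.08 from day 0 to day 14 (SE 0.13, adjusted p = 0.640, higher in 8 of 15), and it turned to −0.34 without TMM (adjusted p = 0.107) and to −0.15 with RNA integrity as a covariate. The change of GZMM from day 0 to day 14 was smaller than that of GZMK in 15 of 15 animals, than that of GZMA in 15 and than that of GZMB in 14.

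**Figure D2:**
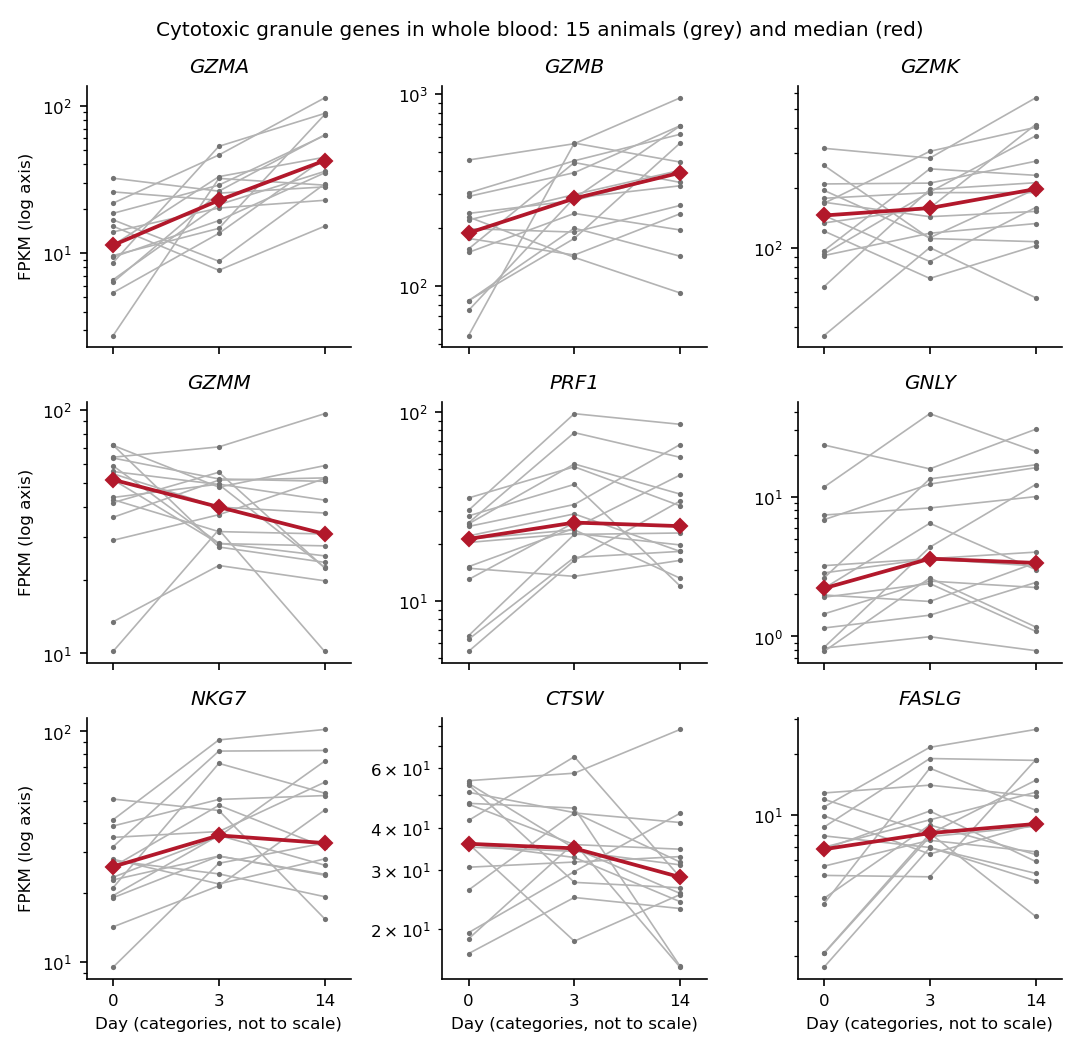
FPKM of each gene (log axis) on day 0, day 3 and day 14, with a grey line for each of the 15 animals and the median in red. The median of GZMA climbs from 11.3 to 42.4 and that of GZMB from 189 to 389.5, the median of GZMM declines from 51.8 to 31.0 in these unscaled values, and the lines of GNLY spread over more than the range of any other panel, from 0.782 to 39.2.

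PRF1 encodes perforin, the pore-forming protein that granzymes need to reach their targets. The level of PRF1 ran from 5.41 FPKM in VSC00011 through 21.3 to 35.1 in VSC00001 on day 0, from 13.5 through 26.0 to 98.0 on day 3, and from 12 through 24.9 to 86.1 on day 14. VSC00002 was highest on both later days, and 5 libraries of each later day lay above every day 0 library. PRF1 rose by 0.90 on day 3 (SE 0.16, adjusted p = 4.98e-04), the only one of the 9 genes that was higher in 15 of 15 animals on that day. It rose by 1.14 from day 0 to day 14 (SE 0.16, adjusted p = 2.28e-06, higher in 14 of 15), or by 0.72 without TMM (adjusted p = 0.00348, higher in 10 of 15 as deposited). Between day 3 and day 14 it differed by 0.24 (SE 0.16, adjusted p = 0.279, higher in 9 of 15). Perforin and granzyme A were also compared within libraries. The log2 ratio of PRF1 to GZMA within a library had a mean of 0.59 on day 0 and 0.51 on day 3, then −0.59 on day 14, and it was lower on day 14 than on day 3 in 13 of 15 animals.

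GNLY encodes granulysin, a lytic peptide of the granule that also acts on microbes. It had the lowest median of the 9 genes and the widest spread between animals. Its level ran from 0.782 FPKM in VSC00012 through 2.21 to 23.4 in VSC00009 on day 0, from 0.996 through 3.60 to 39.2 on day 3 and from 0.792 through 3.36 to 30.3 on day 14, which rests on 13 to 698 fragments per library. VSC00009, VSC00015 and VSC00004 were among the 5 highest animals on all 3 days, with 23.4, 11.7 and 6.84 FPKM on day 0, and VSC00008 was among the 2 lowest on each. GNLY rose by 0.83 on day 3 (SE 0.21, adjusted p = 0.00739, higher in 13 of 15 animals) and by 1.21 from day 0 to day 14 (SE 0.21, adjusted p = 3.86e-05, higher in 14 of 15). Both calls rest on the comparison within animals: with no animal block they were lost (adjusted p = 0.353 and 0.0766). Between day 3 and day 14 it differed by 0.39 (SE 0.21, adjusted p = 0.186).

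NKG7 encodes a membrane protein of cytotoxic granules that is needed for their release. NKG7 levels ran from 9.49 FPKM through 25.9 to 50.9 on day 0, from 21.4 through 35.4 to 91.9 on day 3 and from 15.4 through 32.8 to 102 on day 14. VSC00008 was the highest animal on day 0 and the lowest on day 14, and 6 day 14 libraries lay above every day 0 library. NKG7 rose by 0.67 on day 3 (SE 0.15, adjusted p = 0.00206, higher in 14 of 15 animals) and by 1.04 from day 0 to day 14 (SE 0.15, adjusted p = 2.1e-06, higher in 14 of 15), or by 0.62 without TMM (adjusted p = 0.00654). Between day 3 and day 14 it differed by 0.36 and missed the threshold (SE 0.15, adjusted p = 0.0652, higher in 12 of 15). That step passed with VSC00008 left out (0.41, adjusted p = 0.0324) and with a filter at a mean of at least 5 CPM (0.36, adjusted p = 0.0499).

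CTSW encodes cathepsin W, a papain-like cysteine protease found in NK cells and CD8 T cells. The CTSW level ran from 16.9 FPKM through 35.8 to 55.1 on day 0, from 18.4 through 34.7 to 64.9 on day 3 and from 15.4 through 28.5 to 78.2 on day 14, with VSC00004 highest on day 0 and day 14. The days overlapped, and their medians differed by less than the SD between the animals of a day (13.4, 12.3 and 15.1 FPKM). CTSW differed by 0.06 on day 3 (SE 0.10, adjusted p = 0.725, higher in 6 of 15 animals), by 0.15 from day 0 to day 14 (SE 0.10, adjusted p = 0.244, higher in 9 of 15) and by 0.09 between day 3 and day 14 (SE 0.10, adjusted p = 0.553), and without TMM the second of these turned to −0.27 (adjusted p = 0.163).

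FASLG encodes Fas ligand, which is kept on the membrane of secretory lysosomes until they are released. FASLG levels ran from 1.77 FPKM through 6.79 to 12.9 on day 0, from 4.96 through 8.16 to 21.7 on day 3 and from 3.16 through 9.06 to 26.6 on day 14. On day 0, 5 libraries lay below every day 3 library, and on day 14, 5 lay above every day 0 library. FASLG rose by 0.81 on day 3 (SE 0.20, adjusted p = 0.00575, higher in 12 of 15 animals) and by 1.14 from day 0 to day 14 (SE 0.20, adjusted p = 3.71e-05, higher in 14 of 15), or by 0.73 without TMM (adjusted p = 0.00993). Between day 3 and day 14 it differed by 0.33 (SE 0.20, adjusted p = 0.225). Its ratio to PRF1 in the same library was nearly level, with a change of 0.00 ± 0.39 on the log2 scale from day 0 to day 14 (SD, n = 15, higher in 7 animals).

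The animals differed widely in how far the genes moved. From day 0 to day 14 all 9 genes were higher after TMM in 8 animals, VSC00004, VSC00007, VSC00009, VSC00011, VSC00012, VSC00013, VSC00014 and VSC00015. In FPKM as deposited this held for 4 of them, VSC00004, VSC00007, VSC00011 and VSC00013, while in VSC00009 only 4 of the 9 genes were higher (median change −0.47). The changes of VSC00004 and VSC00009 rest on the libraries that stood apart by their number of genes above 0. After TMM the median change over the 9 genes was largest in VSC00011 (2.53), VSC00014 (2.22) and VSC00007 (1.94). VSC00008 went the other way: 7 of its 9 genes were lower on day 14 than on day 0, with a median change of −0.22, and the 2 that were higher were GZMA (1.07) and GNLY (0.92). Those 2 rises rest on the scaling, because in deposited FPKM GZMA was at 15.2 on both days, GNLY went from 0.826 to 0.792, and 0 of the 9 genes were higher (median change −1.30). After TMM it was the 1 animal of 15 in which GZMB, GZMK, PRF1, NKG7 and FASLG were lower on day 14. VSC00008 had begun high, with the highest NKG7 of any animal on day 0 (50.9 FPKM) and the second highest GZMK and FASLG (259 and 12), and on day 14 it had the lowest NKG7, PRF1, GZMB and FASLG of any animal (15.4, 12, 92.0 and 3.16), and also the lowest GZMA and GNLY. Leaving it out moved the changes from day 0 to day 14 only a little, to 1.64 for GZMB, 1.23 for PRF1 and 1.16 for NKG7.

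**Figure D3:**
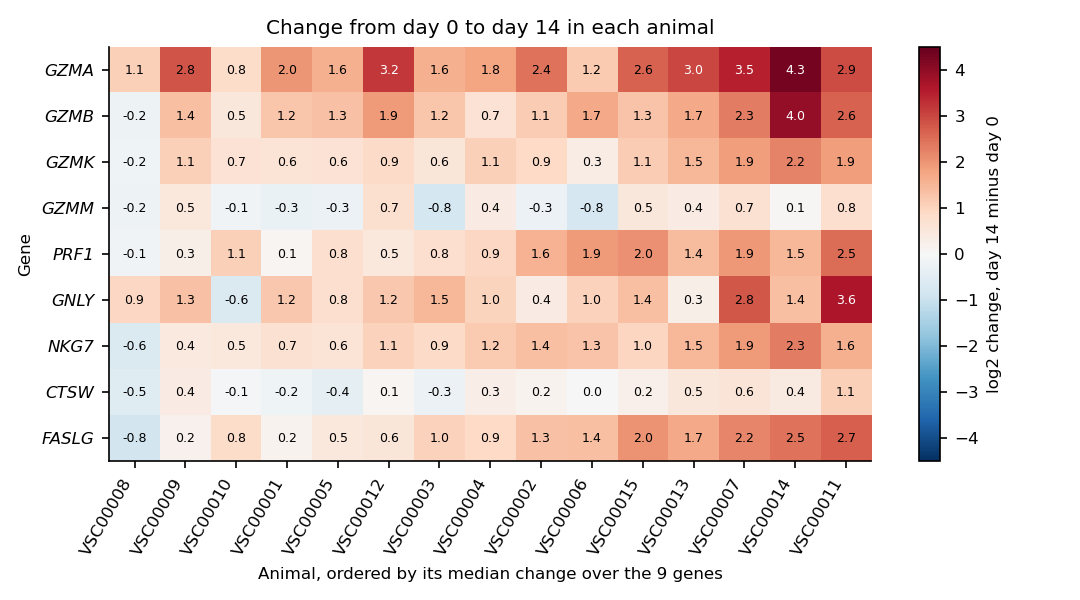
log2 change from day 0 to day 14 (TMM-scaled FPKM + 0.1) of each gene in each of the 15 animals, red for higher and blue for lower on day 14, with animals ordered by their median over the 9 genes. The row of GZMA is red throughout, from 0.83 to 4.30, the rows of GZMM and CTSW hold both colours, and VSC00008 at the left edge is lower for 7 of the 9 genes.

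The sampling day and the animal took different shares of the spread of each gene. Of the sum of squares of the log2 values, the day took 59.9% for GZMA and 42.4% for GZMB, against a median of 12.4% over all tested genes. It took 38.1% for NKG7, 35.8% for PRF1, 35.3% for FASLG and 29.5% for GZMK. For GNLY the animal took 80.2% and the day 10.4%, and for GZMM and CTSW the animal took 64.0% and 55.6% and the day 1.03% and 3.31%. The animal's median share over all tested genes was 39.3%.

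The order of the levels changed with the day. By median FPKM, GZMB and GZMK held ranks 1 and 2 on each day, FASLG and GNLY last, and GZMA moved from rank 7 on day 0 to rank 3 on day 14. GZMB lay above GZMK in 11 of 15 libraries on day 0 and in 13 on day 14, and GZMK lay above the next gene in 15 of 15 on each day. In the middle of the order the neighbours were not separated: on day 14 GZMA lay above NKG7 in 9 of 15 libraries, NKG7 above GZMM in 9, GZMM above CTSW in 10 and CTSW above PRF1 in 10.

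The make-up of the granule transcripts moved with these changes. As a share of the summed FPKM of the 9 genes within each library, which does not depend on scaling between libraries, GZMA went from 2.67% ± 1.04 on day 0 (SD, n = 15) to 3.57% ± 1.09 on day 3 and 5.80% ± 1.83 on day 14, higher on day 14 than on day 0 in 14 of 15 animals. GZMB went from 37.5% ± 6.85 to 44.8% ± 7.72 and 47.0% ± 7.82, higher on day 14 than on day 0 in 13. GZMM went from 9.75% ± 3.45 to 6.55% ± 2.08 and 4.87% ± 2.68, and CTSW from 8.21% ± 2.64 to 6.02% ± 2.23 and 4.05% ± 1.41. Both were lower on day 14 than on day 0 in 15 of 15 animals. GZMK, which rose as a level, went from 29.7% ± 5.27 to 24.6% ± 5.20 and 26.7% ± 5.97 as a share, higher on day 14 than on day 0 in 3 of 15. PRF1, NKG7 and FASLG had their highest mean share on day 3, with 5.21%, 6.31% and 1.55%, and each was lower on day 14 than on day 3 in 12 of 15 animals. The mean share of GNLY was also highest on day 3 (1.21%, 1.39% and 1.33%), differences far below its SD of 1.75 to 2.04. These shares add to the whole in each library, so that a gain of GZMA and GZMB is matched by a loss elsewhere.

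**Figure D4:**
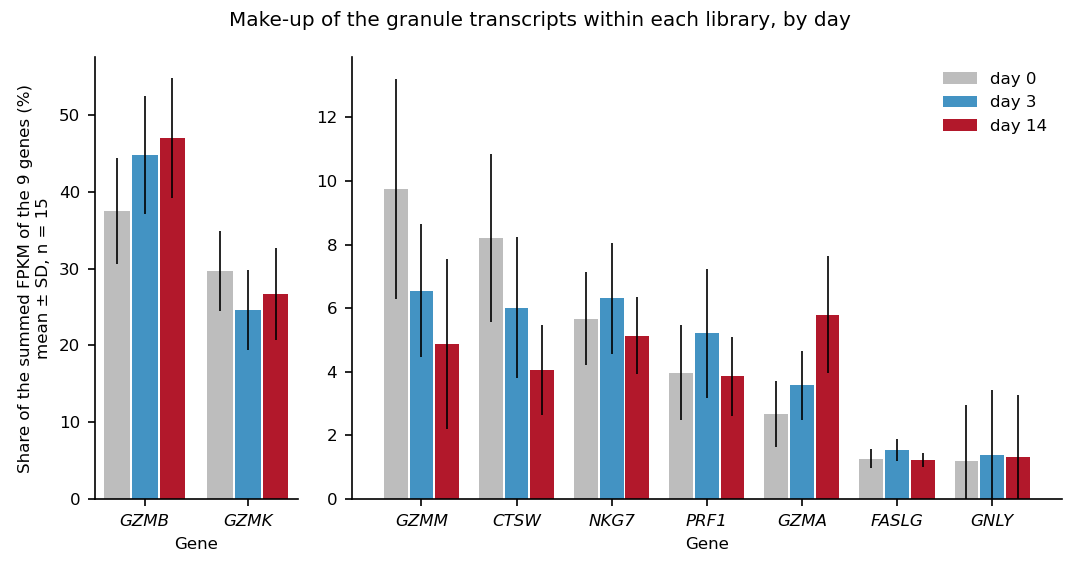
Share of each gene in the summed FPKM of the 9 genes within a library (%, mean with SD bars, n = 15 animals) on day 0 (grey), day 3 (blue) and day 14 (red), with GZMB and GZMK on an axis of their own and the lower bars of GNLY ending at the axis. GZMA gains on each day, GZMM and CTSW lose on each day, and PRF1, NKG7, FASLG and, within its wide bars, GNLY are highest on day 3.

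The 9 genes were set against the T cell receptor complex in the same library, as the difference of log2(FPKM + 0.1) from the mean of CD3D, CD3E, CD3G and CD247, which is also free of library scaling. From day 0 to day 14 this ratio went up by 2.10 ± 0.82 for GZMA (SD, n = 15, 15 of 15 animals), by 1.29 ± 0.90 for GZMB (14 of 15) and by 0.79 ± 0.49 for GZMK (14 of 15). It went up by 0.92 ± 0.66 for PRF1 (14 of 15), by 0.82 ± 0.66 for NKG7 (14 of 15), by 1.01 ± 0.93 for GNLY (12 of 15) and by 0.92 ± 0.80 for FASLG (13 of 15). For each of the 7 genes that rose the mean difference was larger than the SD between animals. For GZMM it differed by −0.14 ± 0.35 (4 of 15 higher) and for CTSW by −0.07 ± 0.28 (7 of 15 higher), within the spread. The ratio of PRF1 had gone up by 0.88 ± 0.45 from day 0 to day 3 (15 of 15 animals). Over those days the ratios of GNLY (0.81 ± 0.77, 13 of 15 higher), NKG7 (0.65 ± 0.59, 12 of 15) and FASLG (0.78 ± 0.75, 12 of 15) differed by slightly more than their SD. Those of GZMA (0.95 ± 0.98, 14 of 15 higher), GZMB (0.78 ± 0.91, 13 of 15) and GZMK (0.23 ± 0.64, 10 of 15) differed by less. The SD is the spread of the change between animals and not the error of its mean. The mean from day 3 to day 14 was larger than the SD for GZMA (1.15 ± 0.67), GZMB (0.52 ± 0.43) and GZMK (0.55 ± 0.48), and PRF1 differed by 0.04 ± 0.58 (7 of 15 higher).

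Markers of the cells that hold these granules moved in part. Of the 11 tested genes of an NK cell list of 17 symbols, 2 rose from day 0 to day 3, 6 from day 0 to day 14 and 5 from day 3 to day 14, and 0 fell in any, also at an unadjusted p under 0.05 or with voom, with medians of 0.15, 0.68 and 0.48. Over all tested genes 10.2%, 22.5% and 13.3% were called as higher. Without TMM 0 rose in the first comparison, 5 rose and 2 fell in the second and 2 rose and 1 fell in the third, and without the animal block the numbers that rose were 0, 6 and 3. KLRD1, the CD94 chain of the NKG2 receptors, rose by 1.13 from day 0 to day 14 (SE 0.15, adjusted p = 1.07e-06, higher in 14 of 15 animals), or by 0.71 without TMM (adjusted p = 0.00159). NCR1, the NK receptor NKp46, differed by 0.43 (adjusted p = 0.109), or by 0.02 without TMM (adjusted p = 0.939). Of the CD8 T cell list of 2 genes, CD8A and CD8B, 1 rose in each comparison with day 0 and without TMM 0 rose and 1 fell from day 0 to day 14. CD8A rose by 0.38 on day 3 (adjusted p = 0.00495) and by 0.46 from day 0 to day 14 (adjusted p = 2.16e-04), and both calls were lost without TMM (0.34, adjusted p = 0.183, and 0.04, adjusted p = 0.841). CD8B differed by −0.05 on day 3 (adjusted p = 0.816) and by −0.10 from day 0 to day 14 (adjusted p = 0.518). CD3E differed by −0.17 from day 0 to day 14 with TMM (adjusted p = 0.376) and was lower without it (−0.59, adjusted p = 0.00819), and of the 4 genes of the receptor complex 0 were called on day 3 (0 at an unadjusted p under 0.05 and 0 with voom), 1 rose from day 0 to day 14 and 2 from day 3 to day 14, whereas without TMM 0 rose and 1 fell in each of these. The medians over the 4 genes were 0.03 on day 3, 0.23 from day 0 to day 14 and 0.22 from day 3 to day 14. Without TMM they were −0.01, −0.19 and −0.16. The summed FPKM of the NK list ran from 202 through a median of 303 to 542 on day 0 and from 121 through 284 to 521 on day 14, and no gene of either list was at 0 in any library. This sum is of FPKM as deposited and mostly follows the most abundant genes of the list. The part that these cells have in the changes of the 9 genes was not tested.

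Among the 9 genes, 3 patterns of co-variation were seen over the 45 libraries after the day means were removed. These correlations are descriptions, and the points share animals and library scaling. PRF1, NKG7 and FASLG varied most closely together (r = 0.84 for PRF1 with NKG7, 0.82 for PRF1 with FASLG and 0.84 for NKG7 with FASLG), and GZMA with GZMB (0.79), GZMB with FASLG (0.78) and GZMK with FASLG (0.80) were close to this. GZMM varied most with CTSW (0.59) and GZMK (0.58), and with GZMB at 0.31. GNLY stood alone, with r between −0.30 for GZMM and 0.14 for GZMA.

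**Figure D5:**
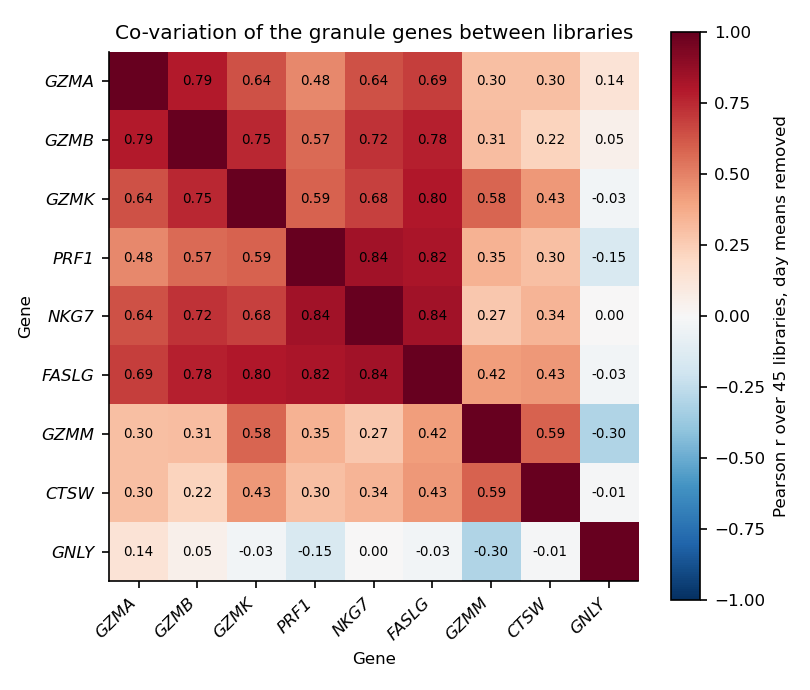
Pearson r between each pair of the 9 genes over 45 libraries with the day means removed (log2 scale, red for positive and blue for negative). GZMA, GZMB, GZMK, PRF1, NKG7 and FASLG form a block with r from 0.48 to 0.84, GZMM and CTSW share 0.59, and the row of GNLY is pale, from −0.30 to 0.14.

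Outside the 9 genes, the tested genes whose pattern over the 45 libraries was most like the mean of the 9 were KLRD1 and SLAMF7 (r = 0.91 for each), an NK receptor chain and a surface receptor of cytotoxic lymphocytes. SAMD3, C25H1orf21, S1PR5 (a receptor for sphingosine 1-phosphate that guides NK cells out of tissue) and GZMH followed with r = 0.88. KLRF1 and BIVM had r = 0.86. For single members, PRF1 was most like PCDH1 (0.95) and TBX21 (0.93), the latter the transcription factor T-bet of effector lymphocytes, GZMK and FASLG were most like KLRD1 (0.93 and 0.91), and GZMA was most like GZMH (0.91). GZMM was most like KANSL2 (0.79) and CRTAM (0.78), and CTSW was most like TEX264 (0.74). For GNLY the highest r was 0.70, with an uncharacterised locus.

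Of a list of 23 transcription factors, cytokine receptors and cytokines of cytotoxic lymphocytes, 9 rose and 2 fell from day 0 to day 3, 9 rose and 5 fell from day 0 to day 14, and 2 rose and 2 fell from day 3 to day 14, with medians of 0.21, 0.11 and −0.07. Over all tested genes 19.0%, 43.9% and 23.9% were called. The balance depended on scaling: without TMM 4 rose and 2 fell from day 0 to day 3, 3 rose and 9 fell from day 0 to day 14 and 1 rose and 12 fell from day 3 to day 14. In that setting 12.8%, 59.2% and 51.1% of all tested genes were called. Without the animal block 5 rose and 2 fell from day 0 to day 3, beside 12.2% of all tested genes called. TBX21 rose by 0.77 on day 3 (SE 0.13, adjusted p = 3.99e-04, higher in 15 of 15 animals) and by 1.01 from day 0 to day 14 (SE 0.13, adjusted p = 9.18e-07, higher in 14 of 15), or by 0.60 without TMM. IL15RA, the receptor chain that presents interleukin-15, rose by 1.66 from day 0 to day 14 (SE 0.20, adjusted p = 4.54e-07, higher in 14 of 15), or by 1.25 without TMM, and IFNG, the effector cytokine of these cells, rose by 0.78 between day 3 and day 14 (SE 0.22, adjusted p = 0.0115), or by 0.47 without TMM (adjusted p = 0.0974). IL12RB1, a chain of the interleukin-12 receptor, rose by 0.58 on day 3 (adjusted p = 3.03e-04) and by 0.69 from day 0 to day 14 (adjusted p = 1.65e-06, higher in 15 of 15), or by 0.29 without TMM (adjusted p = 0.125). BHLHE40, a transcription factor, rose by 0.54 on day 3 (adjusted p = 6.03e-04, higher in 15 of 15). IL18RAP, a chain of the interleukin-18 receptor, fell by 1.57 on day 3 (SE 0.36, adjusted p = 0.00291, lower in 11 of 15). It is expressed in other leukocytes too.

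Genes of the machinery that loads and releases granules were called in both directions. Of 19 tested genes of 21 listed, 2 rose and 1 fell from day 0 to day 3, 4 rose and 6 fell from day 0 to day 14 and 2 rose and 2 fell from day 3 to day 14, with medians of 0.06, −0.12 and 0.01, and without TMM 1 rose and 13 fell from day 0 to day 14 and 1 rose and 11 fell from day 3 to day 14. Over all tested genes 19.0%, 43.9% and 23.9% were called in these comparisons, and without TMM 59.2% and 51.1% in the 2 that end on day 14. The median over all tested genes was then −0.36 and −0.35. LYST, which governs the size of secretory lysosomes, fell by 0.78 on day 3 (SE 0.14, adjusted p = 5.79e-04, lower in 13 of 15 animals) and by 1.06 from day 0 to day 14 (SE 0.14, adjusted p = 1.5e-06, lower in 15 of 15). STXBP2 and STX11, partners in the fusion of granules with the membrane, were among those that fell from day 0 to day 14, and UNC13D, which primes granules for fusion, fell by 0.34 between day 3 and day 14 (SE 0.11, adjusted p = 0.0214). SERPINB9, the inhibitor of granzyme B inside cells, rose by 0.41 on day 3 (SE 0.12, adjusted p = 0.0143), or by 0.37 without TMM (adjusted p = 0.207). SERPINB6, another serpin inside cells, rose by 0.70 from day 0 to day 14 (adjusted p = 2.85e-04, higher in 15 of 15), or by 0.30 without TMM (adjusted p = 0.175), and VAMP7, a fusion protein of lysosomes, by 0.60 (adjusted p = 1.99e-04), or by 0.18 without TMM (adjusted p = 0.135). CTSL, a lysosomal protease, rose by 0.94 from day 0 to day 14 (SE 0.16, adjusted p = 1.96e-05, higher in 13 of 15), or by 0.52 without TMM. Many of these genes are expressed in other blood cells too.

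Genes of the death receptor and granzyme pathways, measured here in whole blood and not in target cells, were called in both directions. Of 14 genes of the death receptor and granzyme pathways, 1 rose and 3 fell from day 0 to day 3, 1 rose and 6 fell from day 0 to day 14 and 0 were called by limma from day 3 to day 14 (1 higher and 3 lower at an unadjusted p under 0.05, and 1 lower with voom), with medians of 0.00, −0.12 and −0.12, and without TMM 0 rose and 12 fell from day 0 to day 14 and 0 rose and 11 fell from day 3 to day 14. The 7 of 14 called from day 0 to day 14 stand beside 43.9% of all tested genes. That share was 19.0% from day 0 to day 3 and 23.9% from day 3 to day 14. Without TMM 59.2% of all tested genes were called from day 0 to day 14 and 51.1% from day 3 to day 14, with medians of −0.36 and −0.35. FAS, the receptor of FASLG, was among the 6. TNFRSF10A, a receptor for the related ligand TRAIL, fell by 0.58 from day 0 to day 14 (SE 0.09, adjusted p = 1.37e-05, lower in 15 of 15 animals), and CFLAR, an inhibitor of caspase activation, fell by 0.68 over the same interval (SE 0.14, adjusted p = 2.63e-04). CASP8, the initiator caspase of the death receptors, fell by 0.43 on day 3 (SE 0.09, adjusted p = 0.00151, lower in 13 of 15), and PARP1, a DNA repair enzyme cleaved during apoptosis, rose by 0.45 (adjusted p = 0.00521), or by 0.40 without TMM (adjusted p = 0.114). TNFSF10, which encodes TRAIL, rose by 0.54 from day 0 to day 14 (SE 0.13, adjusted p = 0.00116, higher in 13 of 15), or by 0.13 without TMM (adjusted p = 0.459).

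Markers of other blood cells moved in the same comparisons. Of 14 neutrophil genes 9 fell from day 0 to day 3 and 13 from day 0 to day 14, with medians of −1.06 and −1.35 and a summed level from 1831 to 35546 FPKM on day 0 and from 561 to 4213 on day 14. Of 12 genes of reticulocytes and erythroid precursors 10 rose from day 0 to day 3 and 12 from day 0 to day 14, with medians of 1.38 and 2.75 and a summed level from 852 to 23767 FPKM on day 0 and from 11928 to 43965 on day 14. Of 8 platelet genes 8 rose from day 0 to day 3 and 4 from day 0 to day 14. On day 3, compared with day 0, 3 of 8 monocyte genes rose and 0 fell (2 rose without TMM), and 4 of 9 CD4 and naive T cell genes fell (1 without TMM). Over all tested genes 10.2% were higher and 8.82% lower in that comparison. By day 14, compared with day 0, 4 of 9 CD4 and naive T cell genes, 3 of 7 B cell genes and 3 of 8 monocyte genes fell, and 3 of 8 basophil and eosinophil genes rose, beside 21.4% lower and 22.5% higher over all tested genes. Without TMM 8 CD4 and naive T cell, 7 B cell and 4 monocyte genes fell over that interval, and 1 basophil and eosinophil gene and 1 platelet gene rose. In that setting 59.2% of all tested genes were called. From day 3 to day 14, 6 monocyte, 5 platelet and 5 B cell genes fell and 9 erythroid genes rose, and without TMM these counts were 7, 7, 7 and 6. Without the animal block they were 3, 3, 4 and 4. Over all tested genes 13.3% were higher and 10.6% lower, and without TMM 51.1% were called. Without TMM 5 neutrophil and 5 CD4 and naive T cell genes also fell in this comparison, against 0 and 1 with it. FPKM are shares of each library, so the levels of the 9 genes are set against these totals, and the part of these cells in the changes of the 9 genes was not tested.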

How the data were processed

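Total RNA from PAXgene whole blood was made into stranded libraries after removal of ribosomal and globin RNA and sequenced as paired ends. The authors aligned reads with STAR to Chlorocebus_sabeus 1.1 and counted fragments per gene with HTSeq (bcl2fastq 2.17 is named for base calls, and other versions are not given in the sources used here). The deposited values are FPKM per gene and library. All 100% of the values above 0 were whole fragments within a tolerance of 0.02, once each library's total and each gene's length had been found from the values.

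Genes with more than 0.5 CPM in at least 3 of 45 libraries were tested (18753 of 33994). FPKM were scaled by TMM, 0.1 was added, and log2 values were fitted with limma 3.58.1 in R 4.3.3 with 1 mean per day and the animal as a block, at an adjusted p of 0.05 over all tested genes. The animal comes from the labels. With the day means removed, the mean r was 0.328 between libraries of 1 animal (41 of 45 pairs over 0.1) and −0.0231 between libraries of different animals. In simulated counts for day 14 vs. day 0, 200 of 17686 tested genes were changed. In those counts the fit recovered 80% of the changes of 1 on the log2 scale and 17% of those of 0.5. Of its calls there 4.9% were false. In the data 8228 of 18753 tested genes were called in that comparison. Whether these rates hold with so many genes called was not tested.

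All 9 members are named. Beside them the rule allowed naming, from the pathway lists, any gene called in a comparison (with values only for the 4 with the lowest adjusted p per list and comparison), defining markers of cell types, and the tested genes most like the members by Pearson r. Not all of these are named. GZMH is named as one of the last, and CD8B, outside the rule, after its values were seen. The members and lists were chosen with earlier results of these data known. Gene neighbours come from the RefSeq table of mChlSab1.0.hap1, in which all 9 symbols were found, and no coordinates were carried over. Tables were drawn with Python 3.11.15, and figures with matplotlib 3.10.9. Alternatives were no block, 1 or 0.01 added before the logarithm, no filter or a mean of at least 5 CPM, no TMM, median-of-ratios scaling, voom on recovered fragments, RNA integrity as a covariate, each animal left out, and, chosen after the data were seen, both animals with a library of over 30000 detected genes left out. FPKM carry no correction for the make-up of the blood, so that a gene's value falls when other transcripts take more of a library.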

Additional observations from a re-analysis of the deposited data

How the results depend on the processing

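The 27 changes of the 9 genes were recomputed under 25 alternatives, 15 of which leave out 1 animal, and 654 of 675 values kept their direction and their side of the threshold. None of the 16 called changes turned its sign under any alternative run. Between day 3 and day 14 the number of genes called fell from 3 to 1 without TMM, where GZMB and GZMK were lost. With each animal left out it was 6 to 6 genes from day 0 to day 3, 7 to 7 from day 0 to day 14 and 3 to 4 from day 3 to day 14. Without the replicate block the numbers were 5, 6 and 2, since GNLY was lost against day 0 and GZMB from day 3 to day 14, and leaving out the block ended no other call. With voom on the recovered fragments they were 6, 7 and 3, where 3483, 7830 and 4448 of all genes were called. Of changes that were not called, those without TMM turned to −0.34 for GZMM and −0.27 for CTSW from day 0 to day 14, and from day 3 to day 14 to −0.25 for GZMM, −0.13 for PRF1, −0.01 for NKG7, −0.28 for CTSW and −0.03 for FASLG. With RNA integrity as a covariate GZMM turned to −0.15 from day 0 to day 14 and to 0.00 from day 3 to day 14. From day 0 to day 3 GZMM, in the fit with no covariate, turned to 0.05, 0.01 and 0.01 without VSC00003, VSC00006 and VSC00010. The cause was not tested. Counts over the pathway and marker lists moved by over 1.5 times in 31 of 78 comparisons with no TMM or no block. Over all tested genes the count from day 3 to day 14 was 4479 with and 9574 without TMM, 2507 without the block and 1786 with the covariate (from day 0 to day 14 the covariate took it from 8228 to 4090), and it lay between 2676 without VSC00008 and 5218 without VSC00006. GNLY, with 13 to 698 fragments per library, is the gene that depth limits most.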
